A study of Mus musculus with 43 samples.

Results

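The genes described here are 10 genes linked to the FoxO transcription factors: the factors Foxo1 and Foxo3, and the targets or partners Fbxo32, Pik3ip1, Ccng2, Sesn1, Irs2, Trp53inp1, Klhl24 and Pdcd4. They are 10 of the 18194 genes that have a probe set annotated to 1 gene on the array, and they were followed through all 13 groups of the study. They were chosen with their response to interleukin 2 (IL-2) in view, so every difference between cells with IL-2 and cells without it is given as a description and not as a test. The annotation maps 28 probe sets to these genes. One of the Foxo3 probe sets is also mapped to Gm38485, which left 27 probe sets of 1 gene. Of these, 26 passed the filter, which asked for a signal above the array's own median on at least 3 arrays, and 9 genes could therefore be tested. The gene that did not pass is Irs2.

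The study used 43 arrays of CTLL-2, an IL-2-dependent cytotoxic T line of mouse (strain C57BL/6), IL-2 being the growth factor of T cells. The line was kept in 50 U/mL of human recombinant IL-2 and then starved of it for 14 h, a step that every group shares, and the starved 0 h group (n = 5) was taken at its end. Further cells were given 100 U/mL of IL-2 and taken 0.5, 1, 2, 6, 8, 10, 12, 16 and 24 h later (n = 3 each) or 4 h later (n = 4). The no IL-2 groups were starved on, for an extra 4 h (n = 4) or 8 h (n = 3). Precision is limited by these array numbers, and the design text describes replicates as biological for the IL-2 time course only. All p-values use 1 estimate of the spread for each probe set, shared by the 13 groups. For no IL-2 they therefore do not measure the spread of those arrays alone, which may be technical.

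The arrays were scanned on 8 days, and these days touch several results below. The 7 arrays of scan day 2 had median signals of 96.3 to 118.6, against 46.1 to 76.5 on the other arrays. All 7 arrays without IL-2 after 0 h were scanned in the second of 2 scan years, and the other 36 arrays in the first, so the difference between those arrays and any other group cannot be told apart from scan year. Replicate 2 of no IL-2 4 h, as labelled, stood apart from the other 3 arrays of its group in 6 of the genes described here. Several results that use it are given with and without it. The counts of genes whose IL-2 4 h and no IL-2 4 h arrays did not overlap, and the correlations over group means, include it. The T cell identity of the line was visible throughout: 11 of 11 T cell markers measured, Cd3e and Thy1 among them, were above the array median on every array. None of the markers of B cells, macrophages, fibroblasts or erythroid cells was above the median on all arrays, although Cd14, Csf1r, Col1a2 and Adgre1 were on 32 to 42 arrays. In bulk samples such as these, fewer cells of a type and less RNA per cell cannot be told apart.

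FoxO proteins are forkhead transcription factors that are held in the cytoplasm when growth factor signals activate PI3K and the kinase AKT, which phosphorylates them. When that signal is withdrawn they enter the nucleus and switch on genes that slow the cell cycle, protect against stress, break down protein or promote cell death. In T cells they are known for quiescence, survival and homing, and IL-2 is one of the signals that activates PI3K. An array reads RNA levels only, so it shows neither phosphorylation nor location of a FoxO protein.

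FoxO proteins bind DNA at short forkhead motifs, so the promoters of the genes described here were searched for them. The search covered both strands of windows from 250 bases before to 50 bases after each annotated start (RefSeq, build GRCm38.p6), with 4 spellings. The canonical spelling was written GTAAACA. The extended spelling, which contains it, was written GTAAACAA. A variant with C in the leading place was written CAAAACA. The core, which lies within each of the other spellings, was written AAACA. The table of windows held 9 windows for 7 of the 10 genes. Fbxo32, Trp53inp1 and Klhl24 had no entry. The sequences below come from the windows of measured genes that hold a longer spelling, shown because they let the motif be seen beside the genes' signals, and they were picked after the matches were known. Capitals mark the motif as it reads 5′ to 3′ on the gene's strand.
Ccng2: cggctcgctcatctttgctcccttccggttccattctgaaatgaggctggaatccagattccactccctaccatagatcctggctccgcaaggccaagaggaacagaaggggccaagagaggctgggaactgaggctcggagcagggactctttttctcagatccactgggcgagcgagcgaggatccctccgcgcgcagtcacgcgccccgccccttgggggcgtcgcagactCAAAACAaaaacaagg
Sesn1: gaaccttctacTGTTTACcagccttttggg
Pdcd4: actgggtagaaCAAAACAaaaacaaacaga
The Ccng2 stretch is the whole upstream part of its window at chr5:93267323-93267572 on the plus strand, and the variant starts 16 bases before the annotated start. The Sesn1 stretch is chr10:41810585-41810614 on the plus strand and holds the canonical spelling on the opposite strand, from base 23 after the start. The Pdcd4 stretch is chr19:53903354-53903383 on the plus strand, at the second of its annotated starts, with the variant from base 15 after the start. The window of Irs2, whose RNA was not measurable, also held the variant. The canonical spelling was present in 1 of the 9 windows and in 3.65% of all 32851 windows. The variant was in 3 of the 9 windows and 6.28% of all, the extended spelling in 0 and 1.23%, and the core in 8 and 50.54%. A match is a description of these letters and says nothing of binding.

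Of the 9 genes that could be tested, 8 had lower RNA signals in IL-2 from 4 h to 16 h than in any starved array, read from each gene's main probe set, and Foxo1 was the exception. Signals are the linear intensities deposited by the authors, scaled so that the trimmed mean of every array is 500. Log2 differences were computed here on log2(signal + 16), which shrinks differences of dim genes, and carry the standard error of the limma fit. After 8 h of IL-2 the log2 difference from starved 0 h was -4.74 ± 0.70 for Pik3ip1, -4.40 ± 0.55 for Klhl24, -3.85 ± 0.48 for Pdcd4 and -3.85 ± 0.60 for Fbxo32. It was -3.49 ± 0.50 for Trp53inp1, -3.45 ± 0.88 for Ccng2, -1.90 ± 0.29 for Sesn1, -1.56 ± 0.27 for Foxo3 and -0.51 ± 0.24 for Foxo1 (n = 3 against 5 arrays). Genes whose IL-2 arrays all lay below all starved arrays numbered 0 of 9 at 0.5 h (1.38% of all tested probe sets) and 0 at 1 h (3.17%). They numbered 7 after 2 h (5.23%), 8 after 4 h (9.23%), 8 after 6 h (12.5%) and 8 after 8 h (15.0%). The count was 8 after 10 h (14.1%), 12 h (13.9%) and 16 h (10.9%), and 7 after 24 h (6.19%). Because these contrasts chose the genes, nothing is read from the counts.

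**Figure D1:**
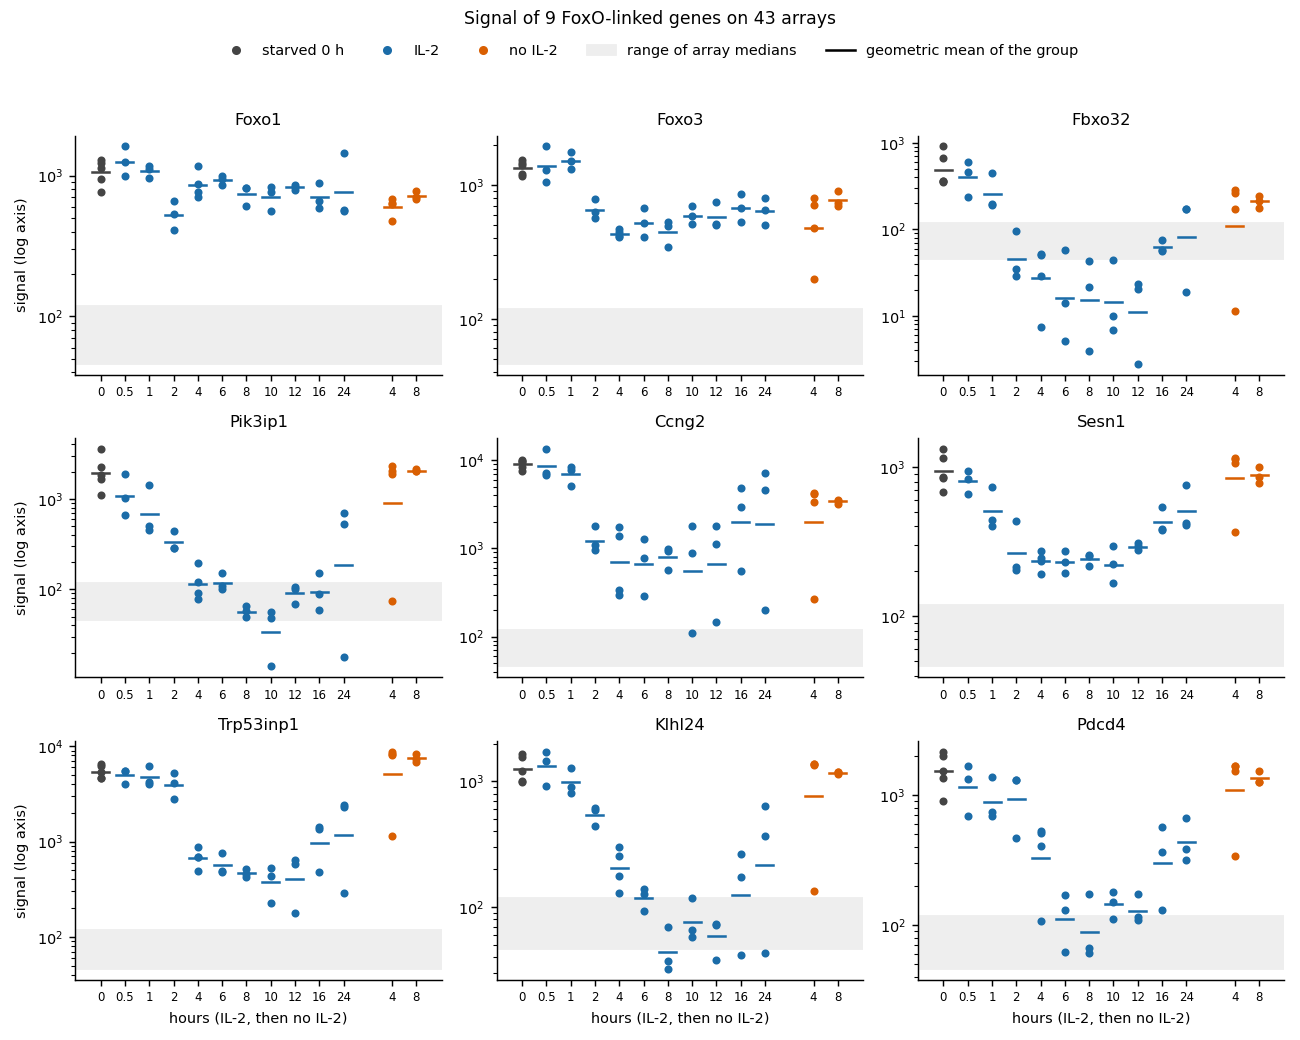
Signal of the main probe set of 9 FoxO-linked genes on each of the 43 arrays (log axis) against hours in IL-2, with the starved arrays at 0 and the no IL-2 arrays at the right. Points are arrays, lines are geometric means of a group, and the grey band is the range of array medians, 46.1 to 118.6. At 8 h Pik3ip1 lies within the band, Klhl24 within or below it and Fbxo32 below it.

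Of the factors themselves, Foxo3 stayed below its starved arrays from 2 h on, and the main probe set of Foxo1 did so at 2 h only. Foxo3, on chr10:42181845-42276695 (GRCm38.p6), read 1408, 1170, 1206, 1558 and 1472 on the 5 starved arrays. It read 1312, 1056 and 1952 at 0.5 h and 1317, 1782 and 1508 at 1 h. Those early arrays overlapped the starved ones. At 2 h it read 632, 565 and 783, at 4 h 467, 449, 416 and 407, and at 8 h 491, 344 and 529. From 2 h to 24 h no IL-2 array reached the lowest starved array, the highest being 862 at 16 h. At 24 h the arrays read 655, 501 and 800. The second well-measured Foxo3 probe set differed by -1.01 ± 0.24 at 8 h, while the dimmest was above the array median on 4 arrays only and its groups overlapped.

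Foxo1, on chr3:52268337-52350109, was lowest at 2 h in its main probe set, which overlapped the starved arrays again from 4 h. Its starved arrays read 1287, 1224, 769, 953 and 1134, and at 0.5 h the arrays read 1249, 996 and 1612. At 2 h they read 662, 530 and 409, all below the starved arrays and the lowest mean of the series of IL-2 times, 533.9. At 4 h the arrays read 879, 766, 702 and 1172 and at 6 h 943, 862 and 999, which overlap the starved range. At 24 h replicate 1 read 1447 and the others 566 and 558. That replicate was not high in a second probe set of the gene, which read 613, 683 and 563, but was the highest of the 3 in another well-measured one, which read 780, 379 and 479. The second probe set also departed from the main one in time. It lay wholly below its lowest starved array, 902, at 2 h, 6 h, 10 h, 16 h and 24 h, and overlapped the starved arrays at 4 h, 8 h and 12 h. The other well-measured one lay below them at 2 h only. In the main probe set the log2 difference from starved cells was 194.7% of the 8 h difference at 2 h and 56.3% of it at 4 h.

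Pik3ip1 had the largest 8 h difference of the 9 genes. Pik3ip1, on chr11:3319241-3342971, encodes a membrane protein that inhibits PI3K. Its starved arrays read 3542, 2250, 1652, 1850 and 1094, and its signal was 1034, 1899 and 655 at 0.5 h, 438, 285 and 288 at 2 h and 193, 121, 78.2 and 91.8 at 4 h. At 8 h it read 48.9, 56.9 and 65, near the array medians. The second Pik3ip1 probe set differed by -4.18 ± 0.65. Irs2, on chr8:10984681-11008929, encodes an adaptor that passes insulin signals to PI3K. Its single probe set read 3.6 to 40.4 over all 43 arrays, was above the array median on 0 of them, and gave no usable measurement.

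Ccng2, Sesn1 and Fbxo32 lay below all their starved arrays at 2 h. Ccng2, which encodes cyclin G2, a cyclin linked to cell cycle arrest, read 8468, 7565, 9545, 9948 and 9804 on the starved arrays. At 1 h it read 5133, 8316 and 7731, and at 2 h 962, 1083 and 1780, so the arrays separated between those times. At 8 h it read 993, 568 and 944. Sesn1, on chr10:41810574-41908436, encodes sestrin 1, a stress protein that restrains the growth kinase mTOR. It read 1158, 861, 849, 1321 and 677 when starved, 738, 401 and 440 at 1 h, 204, 436 and 213 at 2 h and 256, 218 and 253 at 8 h. Fbxo32 encodes atrogin-1, a ubiquitin ligase subunit known from muscle wasting, and lies on chr15:58175879-58214892. It read 365, 363, 913, 671 and 356 when starved and 34.7, 94.9 and 29.3 at 2 h. Fbxo32 was above the array median on 20 of 43 arrays, so it entered the test through the groups where it is high, and from 2 h to 16 h of IL-2 it read 2.8 to 94.9, within or below the range of array medians. At 24 h it read 19, 172 and 173. The size of its difference depends on the added constant: at 8 h it was -4.86 with a constant of 1 and -2.71 with a constant of 64.

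Trp53inp1, Klhl24 and Pdcd4 reached low signals later. Trp53inp1, on chr4:11156441-11174379, encodes a stress protein that acts with p53 and in autophagy. It read 6149, 6488, 5371, 4687 and 4588 when starved and still 5290, 4068 and 2788 at 2 h, and then 686, 875, 691 and 488 at 4 h. Pdcd4, on chr19:53892231-53937592, encodes an inhibitor of translation initiation. It read 2150, 1352, 1534, 1995 and 905 when starved, 1305, 1304 and 465 at 2 h, 512, 407, 529 and 108 at 4 h and 66.3, 174 and 61.4 at 8 h. Klhl24, on chr16:20097553-20129226, encodes a kelch-like adaptor of a ubiquitin ligase. It read 1564, 1662, 1205, 1008 and 990 when starved, 589, 611 and 446 at 2 h, 298, 253, 130 and 177 at 4 h and 70, 32.2 and 37 at 8 h. Trp53inp1 and Pdcd4 first lay below all starved arrays at 4 h, and the other 7 genes at 2 h.

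Read as a share of the 8 h log2 difference, the genes spread from early to late, which is a description. At 2 h Sesn1 stood at 92.8%, Ccng2 at 82.9%, Fbxo32 at 78.1%, Foxo3 at 66.0% and Pik3ip1 at 52.5%. Klhl24 stood at 27.0%, Pdcd4 at 18.2% and Trp53inp1 at 13.3%, and by 4 h these 3 stood at 57.4%, 55.4% and 85.4%. The place of Sesn1 rests on its main probe set, since its other well-measured probe sets stood at 61.9% and 55.5% at 2 h. One Klhl24 probe set stood at 116.5%, and the others at 16.7% to 33.1%. The order uses the same differences that chose the genes. The comparisons of 2 h with 0.5 h and of 8 h with 2 h largely repeat that response, because the 0.5 h arrays of all 9 genes overlapped the starved ones. Their p-values are those of the fit across all probe sets and are not independent evidence, and nothing is read from their counts against the background.

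**Figure D2:**
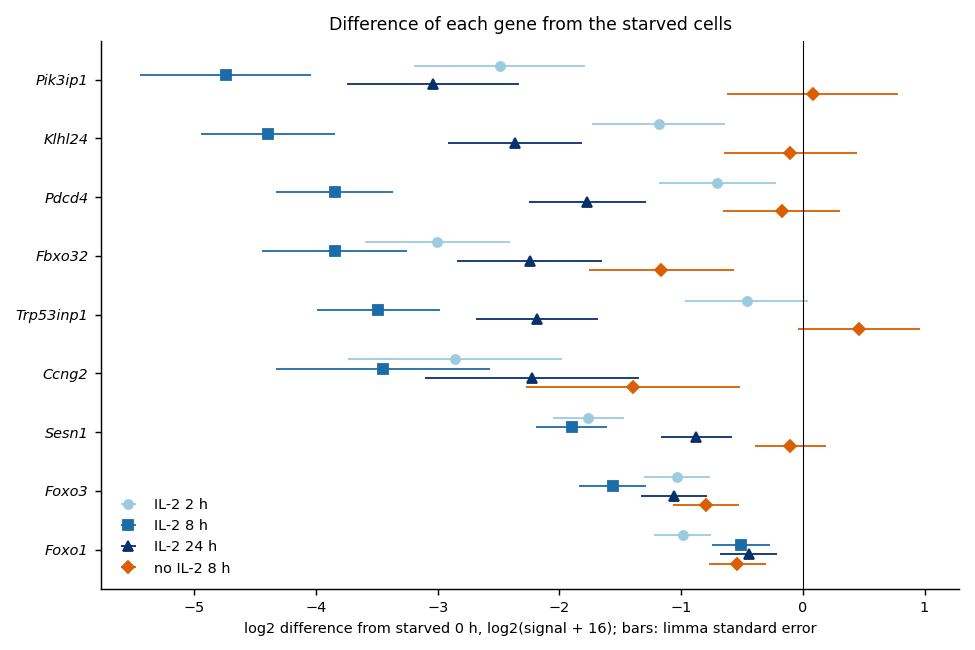
Log2 difference from starved 0 h for each gene, with the limma standard error as bars, at IL-2 2 h, 8 h and 24 h and at no IL-2 8 h. Sesn1 differed by -1.76 at 2 h and -1.90 at 8 h, whereas Trp53inp1 differed by -0.46 at 2 h and -3.49 at 8 h.

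Between 0.5 h and 2 h of IL-2, 3 of the 9 genes fell and 0 rose at an adjusted p under 0.05, where 0.158% of all tested probe sets fell. The log2 differences were -1.24 ± 0.26 for Foxo1 (adjusted p = 0.0153), -1.53 ± 0.33 for Sesn1 (adjusted p = 0.0167) and -2.75 ± 0.67 for Fbxo32 (adjusted p = 0.0423). Fbxo32 passed the filter through the groups where it is high, and the size of its difference depends on the added constant, so its call is no support. Without it the count is 2. All 3 genes read lower on every 2 h array than on any 0.5 h array. A further 2 probe sets of Foxo1 were called as well, with differences of -0.82 and -1.09, both other probe sets of Fbxo32 with -3.17 and -2.20, and 1 of Sesn1 with -1.75. Ccng2 differed by -2.80 ± 0.98 without a call (adjusted p = 0.318), and so did Foxo3, by -1.07 ± 0.30 (adjusted p = 0.113). Pdcd4 (-0.31) and Trp53inp1 (-0.34) did not pass the test either. The calls depend on single arrays: the count was 0 without 0.5 h replicate 1 or 2 h replicate 3, and 1 without 0.5 h replicate 2, 0.5 h replicate 3 or 2 h replicate 1. It was also 0 with median centring and 0 without the scan day 2 arrays. The directions within scan day 2 and within scan day 3 were negative for all 3 called genes: Foxo1 differed by -1.05 and -1.60, Sesn1 by -0.998 and -1.59, and Fbxo32 by -2.31 and -2.42.

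Between 2 h and 8 h, 3 genes fell and 0 rose, where 2.84% of all tested probe sets fell. They were Trp53inp1 (-3.03 ± 0.56, adjusted p = 0.000958), Klhl24 (-3.21 ± 0.62, adjusted p = 0.00131) and Pdcd4 (-3.14 ± 0.54, adjusted p = 0.000418). The second Trp53inp1 probe set was not called (-1.27 ± 0.56, adjusted p = 0.225). A further 3 Klhl24 probe sets were called with differences of -1.87 to -2.26, and 1, already low at 2 h, was not (0.38 ± 0.56, adjusted p = 0.824). Within scan day 3 alone the differences were -3.07, -2.97 and -3.32, and the 3 genes remained past the threshold in each of the 21 alternatives tried. Pik3ip1 differed by -2.25 ± 0.79 (adjusted p = 0.0946). Over the same interval the main probe sets of 3 other genes were not called, with -0.59 ± 0.98 for Ccng2 (adjusted p = 0.848), -0.14 ± 0.33 for Sesn1 (adjusted p = 0.907) and -0.53 ± 0.30 for Foxo3 (adjusted p = 0.41). Other Sesn1 probe sets gave -1.02 ± 0.41 (adjusted p = 0.176) and -1.17 ± 0.61 (adjusted p = 0.341), and Fbxo32 gave -0.84 ± 0.67 (adjusted p = 0.606). Foxo1 differed by 0.48 ± 0.26 (adjusted p = 0.377). Whether the change differs between the genes was not tested.

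Between 8 h and 24 h, 1 gene, Pdcd4, rose (2.08 ± 0.54, adjusted p = 0.0271), where 1.46% of all tested probe sets rose. The 8 h arrays belong to the response that chose the genes. P-values of this comparison are therefore not independent evidence, and nothing is read from its counts. At 24 h, the main probe sets of 5 genes read lower on replicate 1 than on replicates 2 and 3 by a wide margin. Pik3ip1 read 17.8 on replicate 1 against 702 and 530, Ccng2 201 against 7223 and 4570, Trp53inp1 290 against 2390 and 2289, Klhl24 43.2 against 370 and 642, and Fbxo32 19 against 172 and 173. Pdcd4 was not so divided, at 319 against 382 and 666, each above its 8 h arrays. Sesn1 read 411 against 760 and 421, and another of its probe sets 469 against 58.7 and 304.5, with replicate 1 the highest. Of the other Fbxo32 probe sets, 1 read 17.8 on replicate 1 against 9 and 104. Replicate 1 was the lowest of the 3 arrays for 7 of the 9 genes at 24 h and for 5 of 9 at 16 h, where Ccng2 read 553 against 4794 and 2975. Without 24 h replicate 1, 6 of 9 genes rose (3.54% of all tested probe sets): Klhl24 (3.06, adjusted p = 0.000901), Trp53inp1 (2.29, adjusted p = 0.00469), Pik3ip1 (3.11, adjusted p = 0.00525), Pdcd4 (2.29, adjusted p = 0.0133), Fbxo32 (2.41, adjusted p = 0.0234) and Sesn1 (1.18, adjusted p = 0.037). The array was left out after it was seen to read low in several of these genes, so the count is no support. Fbxo32 also passed the filter through groups where it is high. Of the other probe sets of the 6 genes, the second of Pik3ip1 (2.73, adjusted p = 0.0122) and a Klhl24 one (2.30, adjusted p = 0.00596) were called. The rest were not, among them those of Trp53inp1 (1.05, adjusted p = 0.336), Fbxo32 (0.998 and 0.30) and Sesn1 (-0.26 to 1.15). The count of 1 with all arrays became 0 without 24 h replicate 2, 24 h replicate 3, 8 h replicate 1 or 8 h replicate 3. It was also 0 with the groups compared alone.

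A pair of genes that IL-2 is known to switch on was read on the same arrays. Cish, a feedback inhibitor of cytokine signalling, and Myc, a growth factor response gene, were chosen after the values at 24 h had been seen. At 24 h Cish read 8074 on replicate 1 and 2078 and 1612 on the others, and Myc 3889 against 764 and 576. At 16 h Cish read 7415 on replicate 1 and 3338 and 3474 on the others, and Myc 3350 against 1171 and 1441. Not all values run opposite in this way. At 10 h Cish read 7119, 7455 and 7014 where Ccng2 read 110, 891 and 1785, and at 16 h Pdcd4 was highest on replicate 1, at 568 against 366 and 130. Myc did run opposite to Ccng2 at 10 h, at 5781.6, 3483.5 and 2408. At 12 h Myc read 4378.6, 2584.3 and 1823.7 where Ccng2 read 146.4, 1126.3 and 1810.8. Replicate 1 of 24 h was scanned on day 2, replicate 2 on day 5 and replicate 3 on day 3. At 16 h, replicates 1 and 3 were both scanned on day 3 and differed. What set the replicates apart was not tested.

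**Figure D3:**
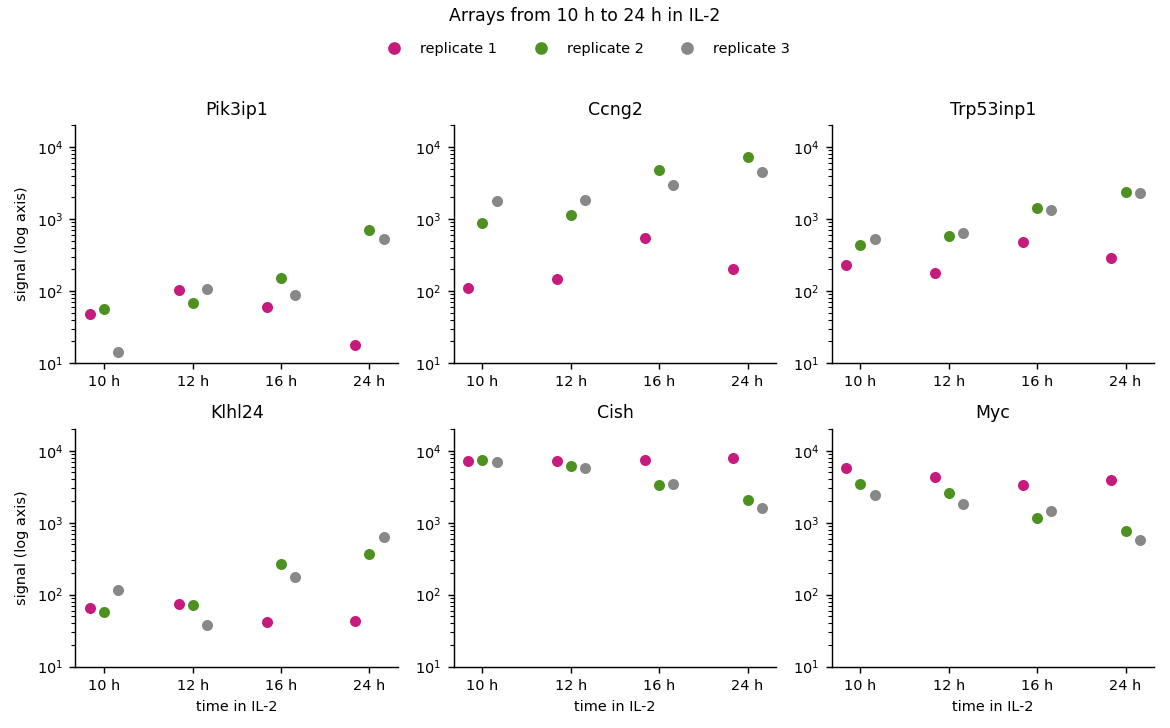
Signal (log axis) on each array from 10 h to 24 h of IL-2 for 4 FoxO-linked genes and for Cish and Myc, with replicates in colour. At 24 h, replicate 1 read 17.8 for Pik3ip1 and 8074 for Cish, whereas replicates 2 and 3 read 702 and 530 for Pik3ip1 and 2078 and 1612 for Cish.

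The cells that stayed without IL-2 give the other side of the comparison, with scan year as a standing limit. At no IL-2 8 h, Pik3ip1 read 2008, 2008 and 2118, Trp53inp1 6781, 7366 and 8277, and Klhl24 1192, 1138 and 1181. IL-2 8 h arrays lay below all no IL-2 8 h arrays for 8 of 9 genes, as did 23.0% of all tested probe sets, from which nothing is read. The log2 difference of IL-2 8 h from no IL-2 8 h was -4.83 ± 0.79 for Pik3ip1, -4.30 ± 0.62 for Klhl24, -3.95 ± 0.56 for Trp53inp1, -3.67 ± 0.54 for Pdcd4 and -2.68 ± 0.67 for Fbxo32. It was -2.05 ± 0.98 for Ccng2, -1.80 ± 0.33 for Sesn1 and -0.77 ± 0.30 for Foxo3. Foxo1 differed by 0.03 ± 0.26, and its other well-measured probe sets by 0.42 ± 0.19 and 0.54 ± 0.27. The Foxo1 arrays of the 2 groups overlapped in the main probe set.

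At 4 h, replicate 2 of the no IL-2 arrays, as labelled, decides the size of several values. On it Pik3ip1 read 75 against 2031, 2281 and 1869, Ccng2 266 against 3342, 4238 and 4095, and Trp53inp1 1146 against 8257, 8725 and 8077. Its Pik3ip1 signal lay just below the lowest IL-2 4 h array, 78.2. With all 4 arrays, the difference of IL-2 4 h from no IL-2 4 h was -2.86 for Pik3ip1, -1.85 for Klhl24, -1.68 for Pdcd4 and -1.48 for Ccng2. Without replicate 2 it was -3.99, -2.65, -2.23 and -2.43. All IL-2 arrays lay below all no IL-2 arrays for 2 of 9 genes at 4 h, as did 8.50% of all tested probe sets, from which nothing is read. Foxo1 alone lay above, as did 8.61% of all tested probe sets, by 0.51 ± 0.23 with all arrays and 0.54 ± 0.25 without replicate 2.

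Further hours without IL-2 were compared with starved 0 h, in which scan year and time cannot be told apart. The starved arrays also entered the choice of the genes. These p-values are therefore not independent evidence, and nothing is read from the counts. At no IL-2 4 h, 3 of 9 genes fell, where 5.43% of all tested probe sets fell: Foxo3 (-1.46 ± 0.25, adjusted p = 0.000257), Foxo1 (-0.80 ± 0.22, adjusted p = 0.0175) and Fbxo32 (-1.81 ± 0.55, adjusted p = 0.0341). Fbxo32 again passed the filter through groups where it is high, the starved one among them, so its call is no support. The second well-measured Foxo3 probe set was called with all arrays (-0.80 ± 0.22, adjusted p = 0.0181) but not without replicate 2 (-0.60 ± 0.22, adjusted p = 0.119). Without replicate 2, 2 of the 9 main probe sets fell (2.94% of all tested probe sets), with Foxo3 at -1.05 ± 0.22 (adjusted p = 0.0033) and Foxo1 at -0.83 ± 0.24 (adjusted p = 0.0369). Fbxo32 was then at -1.01 ± 0.51 (adjusted p = 0.273). Foxo1 was also lost without no IL-2 4 h replicate 4 (adjusted p = 0.0777), and Fbxo32 without starved 0 h replicate 3 (adjusted p = 0.0923) or 4 (adjusted p = 0.0629). Scaling matters here. As deposited, 67.7% of all calls in this comparison were lower at no IL-2 4 h, and with median centring 16.9%. Foxo3 remained called with median centring, and Foxo1 (-0.44, adjusted p = 0.282) did not. At no IL-2 8 h, 0 of the 9 main probe sets were called, where 5.46% of all tested probe sets were called in either direction. At an unadjusted p under 0.05 in limma there were 2, Foxo1 and Foxo3. The share of all probe sets at that threshold was not worked out, so nothing is read from this count. Pik3ip1 differed from starved 0 h by 0.08 ± 0.70, Klhl24 by -0.10 ± 0.55, Sesn1 by -0.10 ± 0.29 and Pdcd4 by -0.17 ± 0.48. Larger differences without a call were -1.40 ± 0.88 for Ccng2 (adjusted p = 0.409), -1.16 ± 0.60 for Fbxo32 (adjusted p = 0.285) and -0.79 ± 0.27 for Foxo3 (adjusted p = 0.0801). Second probe sets gave -2.01 ± 0.83 for Ccng2 (adjusted p = 0.16) and -1.15 ± 0.65 for Pik3ip1 (adjusted p = 0.348). In each of these 5 probe sets all no IL-2 8 h arrays lay below all starved ones. They were named for their size, and the share of all tested probe sets that did so was not worked out. Nothing is therefore read from this.

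Other probe sets of Foxo1 and Trp53inp1 did not all follow their main probe set. A pair of Foxo1 probe sets fell between starved 0 h and no IL-2 8 h, with differences of -0.78 ± 0.17 (adjusted p = 0.0033) and -1.003 ± 0.24 (adjusted p = 0.00781), against -0.54 ± 0.23 (adjusted p = 0.192) for the main one. The second Trp53inp1 probe set read 250, 361, 638, 204 and 290 when starved and 14, 79.9 and 138 at no IL-2 8 h. It fell by 2.15 on the log2 scale (adjusted p = 0.00639), whereas the main probe set differed by 0.46 ± 0.50 (adjusted p = 0.683). Against no IL-2 8 h, IL-2 8 h differed by 0.31 ± 0.56 in that probe set and by -3.95 ± 0.56 in the main one. At no IL-2 4 h against starved 0 h, the main probe set differed by -0.086 ± 0.46 (adjusted p = 0.936) and the second by -1.92 ± 0.46 (adjusted p = 0.00687). Without replicate 2 they differed by 0.63 and -1.46, both without a call. Scan year and time cannot be told apart in the comparisons with starved 0 h. A fall of Trp53inp1 in cells kept longer without IL-2 was called in the dim second probe set only. No direction is read from the main one. What sets the probe sets apart was not tested.

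**Figure D4:**
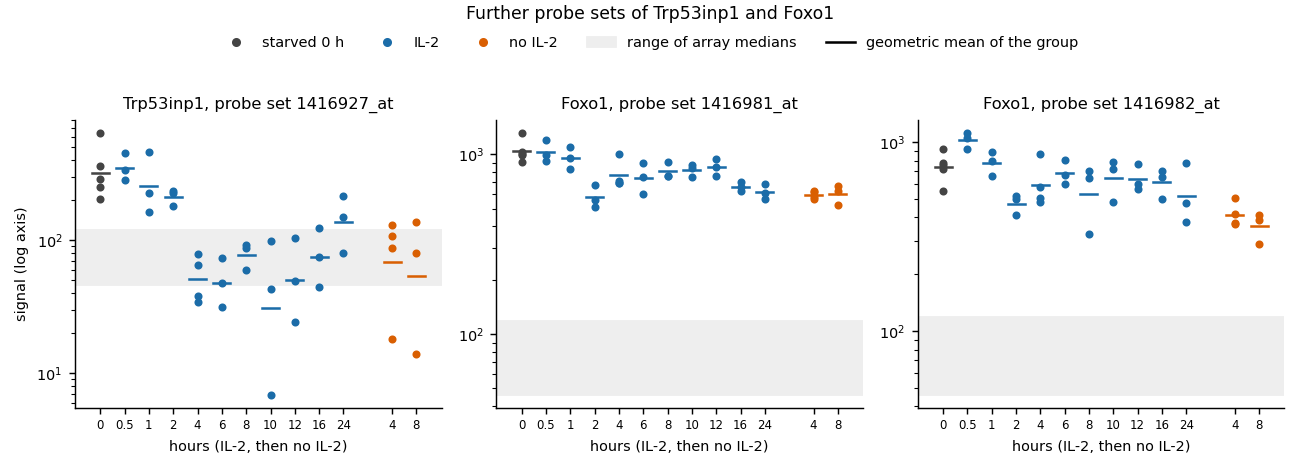
Signal on each array (log axis) for the second probe set of Trp53inp1 and for 2 further probe sets of Foxo1, in the same layout as the plot of the main probe sets. The Trp53inp1 probe set reads 204 to 638 in starved cells and 14 to 138 at no IL-2 8 h.

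From 4 h to 8 h without IL-2, 0 of 9 genes were called by limma, and 1 of 32184 probe sets was (0.00311%). Foxo3 was the 1 gene at an unadjusted p under 0.05, a threshold for which the share of all probe sets was not worked out. The 9 differences ran from 0.05 (Sesn1) to 1.12 (Pik3ip1) with all arrays. Without replicate 2 they ran from -0.34 (Sesn1) to 0.29 (Foxo1), and the count was again 0 (0.00312% of all tested probe sets). The IL-2 effect at 8 h minus that at 4 h gave 0 calls among the 9 genes, where 0.0497% of all tested probe sets were called. At an unadjusted p under 0.05 there were 2 (Klhl24 and Pdcd4), again without a share of all probe sets, so nothing is read from it. The largest in size was Klhl24 at -2.45 ± 0.81 (adjusted p = 0.27). Without replicate 2 that difference was -1.65 ± 0.69 (adjusted p = 0.618), with 0 calls among the 9 genes and 0.00624% of all tested probe sets called.

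The rest of the pathway was read from 4 further lists, at IL-2 8 h against starved 0 h, where 7.11% of all tested probe sets rose and 12.0% fell and their median difference was -0.14. The 4 lists were chosen with earlier results of these data known, and this comparison also chose the genes described. Their p-values are therefore not independent evidence, and nothing is read from the list counts against the background. With median centring 46.1% of all calls were lower, against 62.9% as deposited. Among 28 tested genes of a list of other FoxO targets, 16 fell and 4 rose, with a median of -0.82. The largest were Ctla4, an inhibitory T cell receptor (-3.91 ± 0.69, adjusted p = 7.45e-05), Bcl2l11, which encodes the death protein BIM (-3.82 ± 0.52, adjusted p = 1.54e-06), and Pink1, a mitochondrial quality kinase (-2.70 ± 0.32, adjusted p = 1.98e-07). Of the list's 36 genes, 8 did not pass the filter.

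Of 27 tested PI3K and AKT genes, 11 fell and 2 rose, with a median of -0.32. Sgk1, a kinase related to AKT, fell (-2.61 ± 0.47, adjusted p = 8.08e-05), and so did the regulatory subunits Pik3r3 (-1.68 ± 0.44, adjusted p = 0.00546) and Pik3r2 (-1.32 ± 0.33, adjusted p = 0.00346). The 13 calls became 6 with median centring, 6 without 8 h replicate 1 and 8 without 8 h replicate 3. Of 21 tested FoxO partners and regulators, 5 fell and 2 rose, with a median of -0.13, near that of all probe sets. Foxo4, another FoxO factor, fell by 2.36 (adjusted p = 0.00118) to a mean of 27, below the array medians, and the coactivator Crebbp fell by 0.87 (adjusted p = 0.000717). Prmt1, an arginine methyltransferase that modifies FOXO1, rose by 1.48 (adjusted p = 3.68e-07). Those 7 calls were 3 with median centring.

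Of 17 tested p53 targets, 5 fell and 2 rose, with a median of -0.07. Plk3, a stress kinase, rose by 1.97 (adjusted p = 0.000275), and Btg2, an antiproliferative factor (-1.52 ± 0.51, adjusted p = 0.0314), and Ddb2, a DNA repair protein (-1.33 ± 0.27, adjusted p = 0.000339), fell.

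**Figure D5:**
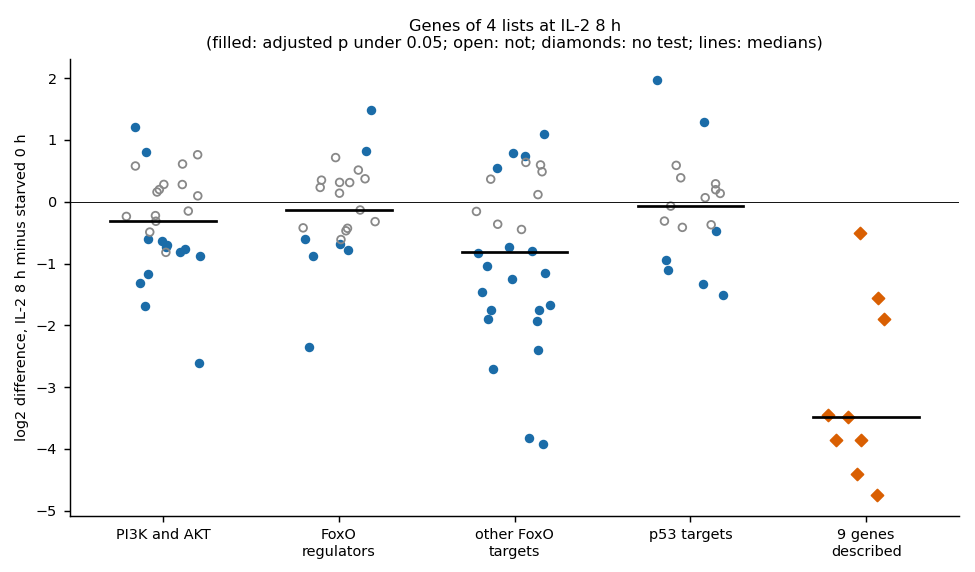
Log2 difference of IL-2 8 h from starved 0 h for each tested gene of 4 lists and for the 9 FoxO-linked genes, with the median of each as a line. Filled points passed an adjusted p under 0.05, open points did not, and diamonds were not tested because the genes were chosen on this difference; the medians are -0.32, -0.13, -0.82, -0.07 and -3.49 from left to right.

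Across the 13 group means, which share the starved and IL-2 arrays of 1 cell line, the log2 profiles of the 9 genes correlated with each other with a median Pearson r of 0.834 over 36 pairs. Fbxo32 with Ccng2 gave the highest value, 0.981, and Foxo1 with Trp53inp1 the lowest, 0.114. Klhl24 correlated at 0.971 with Pdcd4 and at 0.970 with Trp53inp1. Among 14525 other genes, those most like Pik3ip1 were Dennd4c (r = 0.991), Ap3m2 (0.989) and Pias3 (0.982). Dennd4c had mean signals of 6671 when starved, 1262 at IL-2 8 h and 8463 at no IL-2 8 h. Those most like Foxo1 were 1700019D03Rik (0.899), Cadm1 (0.892) and Kcnh3 (0.866), of which 1700019D03Rik and Cadm1 had mean signals near or below the array medians. These values are descriptions over 13 points, and the no IL-2 4 h mean includes replicate 2. The 9 genes were chosen with their IL-2 response in view, and most of the groups are those of the IL-2 time course. High r values between these genes were therefore largely set by that choice, and nothing is read from them.

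The authors' deposited table of probe sets that changed over the time course has 3838 entries, each with a cluster number, of which 12 are probe sets of 7 of the 10 genes. In the authors' deposited table, 8 of those 12 stand in cluster 7, among them both probe sets of Pik3ip1 and of Ccng2. Cluster 7 holds 662 of the 3838 entries, and the array has 45101 probe sets, of which 28 are mapped to the genes described. The table rests on the IL-2 time course that also chose the genes, so nothing is read from these counts. The main probe sets of Trp53inp1 and Sesn1 stand in its cluster 4 and that of Klhl24 in cluster 5. It lists no probe set of Foxo1, Fbxo32 or Irs2.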

How the data were processed

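RNA of CTLL-2 cells was hybridised to Affymetrix Mouse Genome 430 2.0 arrays, 43 in 13 groups taken from the sample titles. The authors deposited linear signal intensities made with GCOS 1.3, per the submitters' processing notes, and the mean after trimming 2% at each end was 500 on every array. The authors' deposited table gives a false discovery rate (a q-value) and a cluster for each listed probe set, and how these were computed is not given in the sources used here. Of 45101 probe sets, 34958 had 1 annotated gene, 932 several and 9211 none.

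Signals were turned into log2(signal + 16) without further scaling, and the 64 control probe sets were left out. Probe sets above the array median on at least 3 arrays were kept, which left 32184. One limma model (limma 3.58.1, R 4.3.3) with a mean per group had 30 residual degrees of freedom and a mean-variance trend, and p-values were adjusted by Benjamini-Hochberg over all 32184 probe sets with a threshold of 0.05. The model was run on simulated data with independent normal noise on each array. That simulation had no scan day effect and no array that stands apart, so it does not check the model against either. With scan day as a random block, the estimated correlation between arrays of the same day was 0.349. Where a gene had several probe sets, the brightest on average (log2 scale) was its main one. Other tools were Python 3.11.15, pandas 2.3.3 and matplotlib 3.10.9. No 2 arrays were identical.

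The genes described, the 4 lists, the tests and the genes named from the lists (the 3 largest called differences of each) were chosen with earlier results of these data known, and Cish and Myc after their values were seen. Genes most alike were named by Pearson r over group means for Pik3ip1 and Foxo1. Alternatives covered the added constant, the filter, scaling, blocks for scan day and replicate number, array weights, the mean over probe sets, the arrays in the fit and leaving out each replicate.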

Additional observations from a re-analysis of the deposited data

Results flagged for a closer look

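Replicate 2 of no IL-2 4 h, as labelled, was far below the other 3 arrays of its group in 6 genes, judged by Dixon's test on the log2(signal + 16) scale. Pik3ip1 stood at 6.51 on it, against 10.88 to 11.17 on the others. Ccng2 stood at 8.14 against 11.71 to 12.05, Sesn1 at 8.58 against 10.09 to 10.18, and Trp53inp1 at 10.18 against 12.98 to 13.09. Klhl24 stood at 7.24 against 10.41 to 10.45, and Pdcd4 at 8.48 against 10.61 to 10.72. Over 27 gene and group combinations examined, 6 passed, where chance passes about 5 percent, and all 6 are this 1 array, so they are not independent. Other genes were not examined, so how widely the array stands apart is not known. Nothing particular to these genes is read from the count. The mean of the IL-2 4 h arrays on the same scale was 7.03 for Pik3ip1, 7.79 for Klhl24 and 8.45 for Pdcd4. The array's cells, label and handling were not tested.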

How the results depend on the processing

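The 63 tested differences of the 9 genes gave 10 calls. Over 213 alternatives of those 10, 167 kept the call, 46 lost it and 0 changed sign, and over 1189 alternatives of the others 1091 stayed uncalled with the same sign, 39 passed the threshold and 59 changed sign. Causes were not tested. The count at 8 h against 2 h was 3 or 4 under every alternative. The arrays number 3 to 5 a group, and at 8 h of IL-2 Fbxo32, Pik3ip1 and Klhl24 lie near or below the array medians. Leaving out scan day 2 and using scan day 3 or 7 only were chosen after seeing the data. So was leaving out no IL-2 4 h replicate 2 or IL-2 24 h replicate 1 for reported values.

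For 2 h against 0.5 h the count of 3 became 0 at an adjusted p under 0.01, 6 with array weights, 0 with median centring, 1 with only scan day 3, 0 without scan day 2, and 0 to 3 leaving out 1 replicate. For 24 h against 8 h the count of 1 became 0 at an adjusted p under 0.01, 8 with array weights, 3 with a filter at the 75th percentile, 3 with only scan day 3, 0 with only the groups compared, 0 with scan day as a fixed block, 6 without scan day 2, and 0 to 6 leaving out 1 replicate. For no IL-2 4 h against starved 0 h the count of 3 became 1 at an adjusted p under 0.01, with median centring and with scan day as a random block. For no IL-2 8 h against starved 0 h the count of 0 became 1 with array weights, with the 75th percentile filter and with averaged probe sets, and 3 with only the groups compared. The difference of IL-2 effects went from 0 to 1 with array weights. PI3K and AKT calls went from 13 to 7 at an adjusted p under 0.01, 6 with median centring, 6 with only scan day 3, 8 with quantile normalization, and 6 to 13 leaving out 1 replicate. FoxO regulator calls went from 7 to 14 with array weights, 3 with median centring and 11 with scan day as a fixed block, and p53 calls from 7 to 11 with array weights and 11 with the fixed block.

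The labels state no source shared by arrays of the same number. Deviations of arrays with the same number correlated with a median of 0.024 (-0.358 to 0.469, 237 pairs), against -0.013 for other numbers, and 24 of 43 arrays correlated best with their own number. How many arrays would do so by chance was not worked out, so these values do not settle whether the numbers pair the samples. Because the labels state no shared source, the numbers were not taken as pairing them. With the replicate number as a block, the member counts were 3, 3 and 1 for 2 h against 0.5 h, 8 h against 2 h and 24 h against 8 h, 3 for no IL-2 4 h against starved, and 0 for the other comparisons, as without it.

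The share of lower calls moved from 67.7% to 55.6% with quantile normalization and 16.9% with median centring for no IL-2 4 h against starved, from 58.6% to 24.2% with median centring for no IL-2 8 h, and from 34% to 9.5% for 2 h against 0.5 h. It moved from 56.7% to 41% for 8 h against 2 h, from 39.8% to 29.1% for 24 h against 8 h, from 62.9% to 52.3% (quantile) and 46.1% (median) for 8 h against starved, and from 37.5% to 0% for the difference of effects under both. The median of all probe sets moved from -0.18 to 0.18 for no IL-2 4 h against starved and from -0.12 to 0.14 for 2 h against 0.5 h with median centring.

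The sign changes all concern differences that were not called. With array weights, values were 0.37 (Ccng2) and 0.31 (Sesn1) for the difference of effects, -0.39 for Foxo1 at 24 h against 8 h, 0.014 for Sesn1 at 8 h against 2 h, -0.018 (Klhl24), -0.11 (Pdcd4) and -0.24 (Sesn1) for no IL-2 8 h against 4 h, and 0.016 (Pdcd4), 0.21 (Sesn1) and 0.46 (Trp53inp1) for no IL-2 4 h against starved. With averaged probe sets they were -0.11 for Foxo1 at 24 h against 8 h, 0.26 for Foxo3 in the difference of effects, -0.018 for Foxo3 at no IL-2 8 h against 4 h, and -0.53 (Pik3ip1), 0.008 (Sesn1) and -0.84 (Trp53inp1) for no IL-2 8 h against starved. With median centring they were 0.11 (Klhl24), 0.041 (Pdcd4) and 0.11 (Sesn1) for no IL-2 8 h against starved, 0.21 (Sesn1) and 0.27 (Trp53inp1) for no IL-2 4 h against starved, 0.004 for Sesn1 at 8 h against 2 h and -0.095 for Sesn1 at no IL-2 8 h against 4 h. With scan day as a random block they were 0.078 for Klhl24 at no IL-2 8 h and 0.021 for Trp53inp1 at no IL-2 4 h, against starved. With only scan day 3 they were -0.53 (Foxo1, 24 h against 8 h), 0.18 (Pdcd4, 2 h against 0.5 h) and 0.27 (Sesn1, 8 h against 2 h), and without scan day 2 -0.38, 0.18 and 0.20. Quantile normalization gave 0.031 and 0.078 for Sesn1 at 8 h against 2 h and in the difference of effects, and the replicate block -0.069 for Pik3ip1 at no IL-2 8 h against starved.

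Leaving out 1 replicate, the difference of effects ran from -0.97 to 0.38 for Ccng2 and from -0.15 to 0.38 for Sesn1. No IL-2 8 h against 4 h ran from -0.18 to 1.13 for Ccng2, -0.16 to 1.00 for Fbxo32, -0.22 to 0.85 for Klhl24, -0.27 to 0.48 for Pdcd4, -0.007 to 1.55 for Pik3ip1, -0.34 to 0.19 for Sesn1 and -0.16 to 0.81 for Trp53inp1. No IL-2 4 h against starved ran from -0.95 to 0.12 for Klhl24, -0.65 to 0.10 for Pdcd4, -1.46 to 0.089 for Pik3ip1, -0.30 to 0.24 for Sesn1 and -0.34 to 0.63 for Trp53inp1. No IL-2 8 h against starved ran from -0.12 to 0.30 for Pik3ip1 and -0.22 to 0.015 for Sesn1. Foxo1 ran from -0.38 to 0.29 at 24 h against 8 h, Pdcd4 from -0.68 to 0.17 at 2 h against 0.5 h, and Sesn1 from -0.32 to 0.20 at 8 h against 2 h.

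Among described differences at 8 h, averaged probe sets gave -2.67 against starved and -1.82 against no IL-2 for Trp53inp1, -3.08 and -2.73 for Klhl24, and -1.02 and -0.14 for Foxo3. Fbxo32 against no IL-2 was -3.65 with an added constant of 1 and -1.69 with 64.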
